A study of Mus musculus with 16 samples.

Results

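The 7 genes described here belong to iron handling and were read in tumour macrophages: Slc40a1, Hmox1, Fth1, Ftl1, Tfrc, Slc11a1 and Lcn2. They were taken by symbol from the 32285 genes listed in each of 8 single-cell count matrices, and all 7 were present in every matrix. The cells came from subcutaneous B16 melanomas in C57BL/6J mice, each given 1000000 Bro4.1 B16 tumour cells that were either controls or B2m-null, that is, without the light chain that class I antigen presentation needs. Antibody was injected intraperitoneally at 100 mcg on days 6, 9 and 12, either anti-CD40, which binds a receptor of macrophages, dendritic cells and B cells, or rat IgG2a isotype, and tumours were taken on day 14 for isolation of CD45-positive cells on magnetic beads. Hashtag antibodies marked the cells of each mouse, which gave 5 mice with control tumours and isotype, 2 with control tumours and anti-CD40, 5 with B2m-null tumours and isotype and 4 with B2m-null tumours and anti-CD40. The labels assign the B2m genotype to the mouse strain, but the study's design text assigns it to the injected melanoma line, and the groups here follow the design text. Every Chromium lane held mice of 1 group, so a lane's own effect is known only against the other lane of its group. The 2 lanes of control tumours with anti-CD40 are technical replicates of 1 pool of mice, whereas each of the other 3 groups came from 2 separate pools.

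Macrophages take up iron with transferrin, with haem and with engulfed red cells, keep it in ferritin and release it through ferroportin, and they are the main recyclers of iron in the body. Slc40a1 encodes ferroportin, the known cellular iron exporter. Hmox1 encodes haem oxygenase 1, which opens the haem ring and frees its iron. Fth1 and Ftl1 encode the heavy and light chains of ferritin, and Tfrc encodes transferrin receptor 1, which brings in transferrin-bound iron. Slc11a1 encodes a metal transporter of the phagosome membrane, and Lcn2 encodes lipocalin 2, a secreted protein that binds iron-carrying siderophores and is abundant in neutrophils. Several of these messages also carry an iron-responsive element, a short hairpin bound by the iron regulatory proteins when iron is scarce. Binding in the 5′ UTR holds back translation of ferritin and ferroportin, and binding in the 3′ UTR keeps the Tfrc message from decay, so RNA counts of ferritin do not report on that translational step.

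On GRCm38 the genes lie at chr1:45908068-45926523 on the minus strand (Slc40a1), chr8:75093621-75100589 on the plus strand (Hmox1), chr19:9980598-9985098 on the plus strand (Fth1), chr7:45457944-45459884 on the minus strand (Ftl1), chr16:32608920-32632794 on the plus strand (Tfrc), chr1:74375195-74386062 on the plus strand (Slc11a1) and chr2:32384633-32388252 on the minus strand (Lcn2). The iron-responsive elements are shown because the storage and export genes hold them in the 5′ UTR and the import gene in the 3′ UTR. A search of the annotated UTRs on the mRNA strand looked for an unpaired C, 5 bases, the loop CAGTGN and 5 bases that pair with the first 5, 17 bases in all. The match was found in the 5′ UTR of 31 of 20580 coding genes (0.151%), among them Fth1, Ftl1 and Slc40a1. It was found in the 3′ UTR of 129 of 20962 (0.615%), among them Tfrc. Each element below is 29 bases, 5′ to 3′ on the mRNA strand, with the loop in capitals.
Fth1 5′ UTR, chr19:9982732-9982760, plus strand: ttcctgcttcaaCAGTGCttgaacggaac
Ftl1 5′ UTR, chr7:45459779-45459807, minus strand: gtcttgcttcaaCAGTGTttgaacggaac
Slc40a1 5′ UTR, chr1:45925465-45925493, minus strand: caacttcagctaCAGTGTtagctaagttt
Tfrc 3′ UTR, chr16:32631219-32631247, plus strand: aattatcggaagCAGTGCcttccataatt
Tfrc 3′ UTR, chr16:32631598-32631626, plus strand: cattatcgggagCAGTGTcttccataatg
Tfrc 3′ UTR, chr16:32631663-32631691, plus strand: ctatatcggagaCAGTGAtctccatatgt
Tfrc 3′ UTR, chr16:32631710-32631738, plus strand: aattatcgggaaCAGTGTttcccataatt
Both ferritin genes and Slc40a1 held 1 such hairpin each and Tfrc held 4 in a row. A match describes the letters in the window and not a bound site.

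The 8 lanes held 116552 barcodes, at median depths of 1715 to 4225 UMIs, and 70790 cells passed the filters with an assigned mouse. The share of barcodes given to a mouse was 22.65% in 1 lane of B2m-null tumours with isotype, 55.92% in 1 lane of control tumours with isotype and 59.59% in 1 lane of B2m-null tumours with anti-CD40, against 79.36% to 90.88% in the other lanes. Cells of each lane shared 0.308% to 0.623% of their barcodes with another lane. B2m in melanoma-like cells lay between 1097 and 2139 counts per 1000000 UMIs (CPM) in the 4 lanes of control tumours and between 189.3 and 461.4 CPM in the 4 lanes of B2m-null tumours, and macrophage-like cells held 2775 to 5818 CPM in all lanes. Cell types were named from marker genes after clustering without the iron genes. Macrophage-like cells numbered 7120 and 8666 in control tumours with isotype and anti-CD40, and 5269 and 5528 in B2m-null tumours, with median depths of 4884, 2864, 6472 and 5994 UMIs per cell. Each mouse's macrophage-like cells were summed and its CPM is the level given below, so a level is a share of the UMIs of that cell class.

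In macrophage-like cells of B2m-null tumours, the exporter gene Slc40a1 and the importer gene Tfrc fell after anti-CD40, and Fth1, Slc11a1 and Lcn2 rose. That is 5 of 7 genes with an adjusted p under 0.05, 3 up and 2 down, where 31.9% of all 11988 genes tested passed, 16.2% up and 15.7% down. In control tumours 1 of 7 passed, Fth1, which rose, where 21.6% of all genes passed, 11.5% up and 10.1% down. Under isotype, B2m-null tumours differed from control tumours in 3 of 7 genes, with Slc40a1 and Tfrc higher and Slc11a1 lower, where 7.82% of all genes passed, 3.44% higher and 4.39% lower. Under anti-CD40 the tumour genotypes differed in 0 of 7 by edgeR's quasi-likelihood test with Benjamini-Hochberg adjustment, with 0 at an unadjusted p under 0.05 and 0 by DESeq2, where 11.8% of all genes passed, 5.54% higher and 6.26% lower in B2m-null tumours. The response to anti-CD40 differed between tumour genotypes in 0 of 7 by the same test, with 1 at an unadjusted p under 0.05 and 1 by DESeq2 (Tfrc), where 16.3% of all genes passed, 8.02% in the positive and 8.28% in the negative direction. At an unadjusted p under 0.05 there were 3465 of 11988 genes for genotype under anti-CD40 and 3771 for the difference of response.

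**Figure D1:**
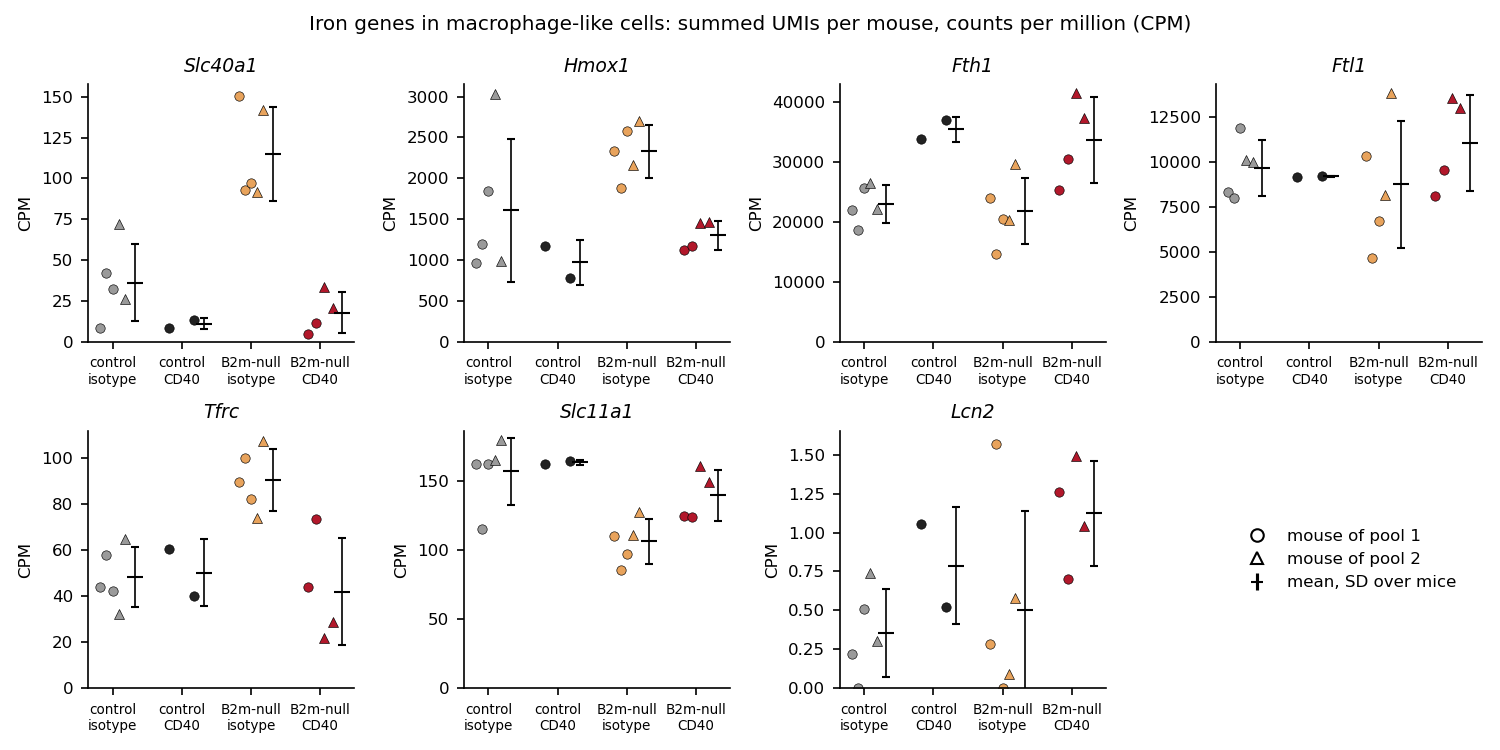
Level of each iron gene in macrophage-like cells, in CPM on a linear axis, with 1 point per mouse (circles for the first pool of a group, triangles for the second) and a dash and line for the mean and SD over mice. Slc40a1 of all 5 B2m-null isotype mice sits above all 4 B2m-null mice with anti-CD40. For Tfrc the same groups nearly touch, at 73.68 CPM in the lowest isotype and 73.62 CPM in the highest anti-CD40 mouse. Fth1 of both control mice with anti-CD40 sits above all 5 control isotype mice.

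Slc40a1 was highest in macrophage-like cells of B2m-null tumours under isotype, at 150, 93.0 and 96.9 CPM in the 3 mice of the first pool and 91.8 and 142 CPM in the 2 mice of the second. With anti-CD40 the B2m-null mice held 5.03 and 11.4 CPM in the first pool and 33.8 and 20.7 CPM in the second. The groups did not overlap, and the lowest isotype mouse lay above the highest anti-CD40 mouse in each pool. Slc40a1 was among 3 of 7 genes without overlap in this comparison, the others being Hmox1 and Tfrc, where 26.7% of all genes with a mean of at least 1 CPM were without overlap. The fitted change was -2.39 ± 0.469 on the log2 scale (SE), a ratio of 0.19 (adjusted p = 0.00111, edgeR's quasi-likelihood test with Benjamini-Hochberg adjustment), and it passed in 19 of 19 alternative settings. Its size depended on the anti-CD40 pools, with -3.66 without the second B2m-null anti-CD40 pool and -1.85 without the first.

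Control tumours started lower, with 8.36, 42.3 and 32.3 CPM of Slc40a1 in the first isotype pool and 72.4 and 26.0 CPM in the second. The 2 anti-CD40 mice held 8.68 and 13.4 CPM, within the isotype range because of its lowest mouse. The change of -1.55 ± 0.602 did not pass (adjusted p = 0.0739, edgeR's quasi-likelihood test with Benjamini-Hochberg adjustment), and it passed in 4 of 18 alternative settings. The difference between the anti-CD40 effects in B2m-null and control tumours was -0.84 ± 0.721 (adjusted p = 0.456, edgeR's quasi-likelihood test), so no difference of response was shown for Slc40a1. Under isotype all 5 B2m-null mice were above all 5 control mice, a mean of 115 ± 28.8 CPM against 36.3 ± 23.7 CPM (SD). In this comparison 2 of 7 genes were without overlap, Slc40a1 and Tfrc, where 8.2% of all genes were. The genotype difference of 1.60 ± 0.42 passed (adjusted p = 0.0283, edgeR's quasi-likelihood test), but not without the first control isotype pool (1.17, adjusted p = 0.331), the first B2m-null isotype pool (1.64, adjusted p = 0.15), the second (1.56, adjusted p = 0.0574) or with lanes in place of mice as the unit (1.45, adjusted p = 0.165). It passed in 14 of 19 alternative settings.

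The same order appeared in the share of cells with a Slc40a1 UMI. After thinning each cell to 1000 UMIs, 2.63% of macrophage-like cells in control isotype, 0.722% in control anti-CD40, 7.55% in B2m-null tumours under isotype and 1.32% with anti-CD40 held one, as means over mice. Unthinned, the shares were 8.12%, 2.36%, 21.8% and 5.50%. Thinning left out 398, 1376, 266 and 319 shallower cells in these groups. CD8 T-like cells, taken as a class with little of the gene, held a thinned Slc40a1 UMI in 0.0206%, 0.0724%, 0.142% and 0.0766% of cells at median depths of 3508, 1242, 3062 and 2226 UMIs, below the macrophage-like share in each group.

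Hmox1 ranged from 962 to 3031 CPM in control tumours under isotype, with 962, 1198 and 1849 CPM in the first pool and 3031 and 992 CPM in the second. The 2 control mice with anti-CD40 held 1166 and 777 CPM. B2m-null isotype mice held 2333, 1877, 2573, 2163 and 2697 CPM, and B2m-null mice with anti-CD40 held 1118, 1174, 1450 and 1464 CPM. In B2m-null tumours the groups did not overlap, and in control tumours they did. Neither change passed by edgeR's quasi-likelihood test with Benjamini-Hochberg adjustment: -0.64 ± 0.273 in B2m-null tumours (adjusted p = 0.0835) and -0.61 ± 0.347 in control tumours (adjusted p = 0.226). The B2m-null change passed in 3 of 19 alternative settings, among them the test without a filter on low counts (-0.63, adjusted p = 0.0494). The summed level of 7 erythroid markers, globin genes among them, moved in the same direction: a mean of 79.9 CPM (3.78 to 257) in control isotype and 4.68 CPM (2.5 to 6.86) in control anti-CD40. In B2m-null tumours it had a mean of 70.9 CPM (1.47 to 179) under isotype and 14.0 CPM (0.53 to 52.7) with anti-CD40. Alas2, for the erythroid enzyme of haem synthesis, was at 0 in control tumours with anti-CD40. The part of red cell RNA in the levels of Hmox1 and Slc40a1 was not tested.

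Fth1 was the iron gene that rose after anti-CD40 in both tumour genotypes. In control tumours the isotype mice held 21937, 18710, 25609, 26378 and 22066 CPM and the anti-CD40 mice 33870 and 36901 CPM. The groups did not overlap, and Fth1 was 1 of 7 genes without overlap in this comparison, where 43.2% of all genes were. The rise was 0.76 ± 0.232, a ratio of 1.70 (adjusted p = 0.0257, edgeR's quasi-likelihood test with Benjamini-Hochberg adjustment). It did not pass without the first control isotype pool (0.69, adjusted p = 0.159), with lanes as the unit (0.76, adjusted p = 0.146) or with stricter cell filters (0.66, adjusted p = 0.0737).

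In B2m-null tumours Fth1 stood at 23978, 14556, 20500, 20362 and 29657 CPM under isotype, and at 25254 and 30468 CPM in the first anti-CD40 pool and 41521 and 37261 CPM in the second. The groups overlapped, and the second anti-CD40 pool lay above every isotype mouse. The rise was 0.82 ± 0.191, a ratio of 1.77 (adjusted p = 0.00365, edgeR's quasi-likelihood test), and the difference between the 2 anti-CD40 effects was 0.06 ± 0.307 (adjusted p = 0.934). The call ended without the first B2m-null isotype pool (0.60, adjusted p = 0.0738), without the second anti-CD40 pool (0.50, adjusted p = 0.108) and with lanes as the unit (0.69, adjusted p = 0.0821).

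Ftl1, the light chain, did not pass in any comparison of the macrophage-like class as a whole. Its means were 9661 ± 1564 CPM in control isotype, 9184 ± 37.4 CPM in control anti-CD40. In B2m-null tumours they were 8740 ± 3518 CPM under isotype and 11034 ± 2655 CPM with anti-CD40. The largest change was that with anti-CD40 in B2m-null tumours, 0.53 ± 0.248 (adjusted p = 0.111, edgeR's quasi-likelihood test), which passed in 2 of 19 alternative settings, without the second isotype pool and without the first anti-CD40 pool. Isotype mice of B2m-null tumours alone ran from 4658 to 13833 CPM and so covered the whole range of the anti-CD40 mice, 8084 to 13565 CPM. Reads of Ftl1 can be shared with near-identical copies such as Ftl1-ps1, and this sharing was not measured here for either ferritin gene.

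Tfrc moved with tumour genotype and treatment in the same order as Slc40a1 in B2m-null tumours. Under isotype it stood at 43.8, 57.9, 42.4, 32.4 and 64.8 CPM in control tumours and at 89.5, 99.7, 82.2, 73.7 and 107 CPM in B2m-null tumours. All 5 B2m-null mice were above all 5 control mice, with a difference of 0.88 ± 0.249, a ratio of 1.84 (adjusted p = 0.0386, edgeR's quasi-likelihood test). It did not pass without the first control isotype pool (0.88, adjusted p = 0.313), the second (0.88, adjusted p = 0.0855), the first B2m-null isotype pool (0.92, adjusted p = 0.193), the second (0.86, adjusted p = 0.0845), with stricter cell filters (0.77, adjusted p = 0.0947) or with lanes as the unit (1.00, adjusted p = 0.157).

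With anti-CD40 the B2m-null mice held 44.0 and 73.6 CPM of Tfrc in the first pool and 21.7 and 28.6 CPM in the second. All were below the isotype mice, but the highest, at 73.62 CPM, nearly touched the lowest isotype mouse, at 73.68 CPM. The fall was -0.98 ± 0.267, a ratio of 0.508 (adjusted p = 0.0102, edgeR's quasi-likelihood test). It did not pass without the first B2m-null isotype pool (-0.997, adjusted p = 0.0604), without the second anti-CD40 pool (-0.48, adjusted p = 0.177) or with lanes as the unit (-0.97, adjusted p = 0.0629), and without the first anti-CD40 pool it was -1.62. The 2 control mice with anti-CD40 held 60.3 and 39.8 CPM, inside the control isotype range, with a change of 0.19 ± 0.315 (adjusted p = 0.718). The difference between the anti-CD40 effects was -1.16 ± 0.408 (adjusted p = 0.0595, edgeR's quasi-likelihood test). It passed in 6 of 18 alternative settings, among them DESeq2 (-1.13, adjusted p = 0.0408). Without the first B2m-null anti-CD40 pool it was -1.81 (adjusted p = 0.00479, edgeR's quasi-likelihood test).

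Slc11a1 was lower in B2m-null than in control tumours under isotype, with 110, 85.1, 96.9, 111 and 128 CPM against 162, 115, 162, 165 and 179 CPM. The groups overlapped only through 1 control mouse at 115 CPM. The difference was -0.60 ± 0.137, a ratio of 0.662 (adjusted p = 0.0154, edgeR's quasi-likelihood test), and it did not pass without the first control isotype pool (-0.72, adjusted p = 0.0877), the second (-0.51, adjusted p = 0.0697), the first B2m-null isotype pool (-0.41, adjusted p = 0.236) or with lanes as the unit (-0.58, adjusted p = 0.163). After anti-CD40 the B2m-null mice held 124, 124, 161 and 149 CPM, a rise of 0.57 ± 0.143 (adjusted p = 0.00617), and control mice held 162 and 164 CPM. That rise did not pass without the first B2m-null isotype pool (0.40, adjusted p = 0.111), without the second anti-CD40 pool (0.34, adjusted p = 0.147) or with lanes as the unit (0.51, adjusted p = 0.0845). Under anti-CD40 both control mice lay above all B2m-null mice, 1 of 7 genes without overlap, where 38.9% of all genes were.

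Lcn2 was near the limit of detection in macrophage-like cells, with 21, 24, 21 and 50 UMIs in all of control isotype, control anti-CD40, B2m-null isotype and B2m-null anti-CD40. Its means were 0.355, 0.787, 0.503 and 1.12 CPM. The rise in B2m-null tumours, 1.53 ± 0.515 (adjusted p = 0.0305, edgeR's quasi-likelihood test), rests on these counts and the groups overlapped. It did not pass by DESeq2 (adjusted p = 0.0625), with stricter cell filters (adjusted p = 0.114) or with finer clustering (adjusted p = 0.139). After thinning, 0.0406%, 0.0486%, 0.0287% and 0.115% of macrophage-like cells held an Lcn2 UMI, against 0%, 0.0224%, 0% and 0.0730% of CD8 T-like cells. Neutrophil-like cells of the same tumours held 302, 2922, 351 and 1508 CPM of Lcn2. The 7 neutrophil markers summed in macrophage-like cells to 119 CPM (94.4 to 147), 219 CPM (146 to 292), 95.0 CPM (68.5 to 125) and 288 CPM (165 to 564), with none of the 7 at 0, and their part in the Lcn2 level was not tested.

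**Figure D2:**
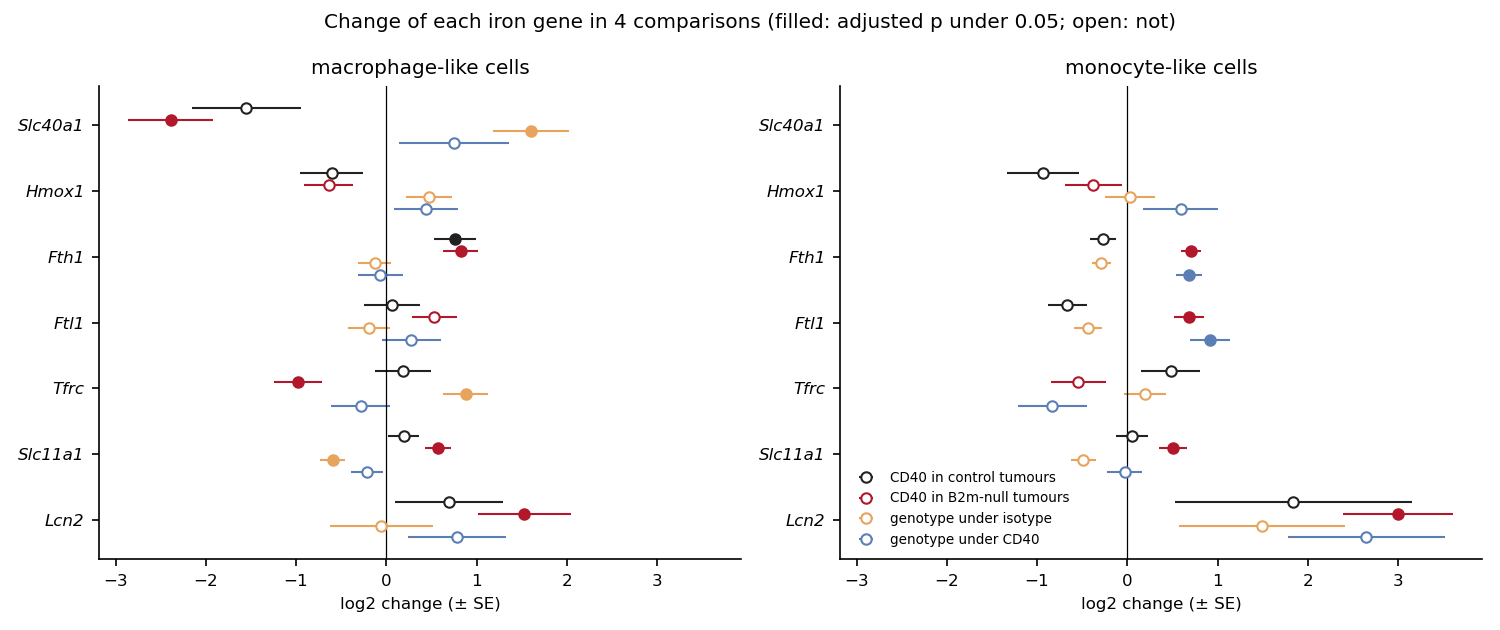
Log2 change of each iron gene with its standard error in macrophage-like cells (left) and monocyte-like cells (right) for 4 comparisons, with filled points for an adjusted p under 0.05. Slc40a1 lies left of 0 for anti-CD40 in both tumour genotypes in macrophage-like cells, and ferritin genes of monocyte-like cells lie right of 0 for anti-CD40 in B2m-null tumours. Slc40a1 is not drawn in monocyte-like cells, where control mice with anti-CD40 held no count.

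The macrophage-like class joined 7 clusters, and their shares of it varied by group, with none above 46.3% in any group's mean. Cluster 14, led by the interferon-induced genes Rsad2 and Ifit2, held 20.8% of the class in control isotype, beside 19.7% in cluster 9. Cluster 5, led by Gpnmb and Il18bp, held 46.3% in control anti-CD40. Cluster 3, led by Stab1 and Fcrls, held 33.4% in B2m-null isotype. Cluster 1, led by the resident-macrophage genes Cd209f, Lyve1 and Cd163, held 25.5% in B2m-null anti-CD40. Its share was 25.8% in B2m-null isotype, 25.5% in control anti-CD40 and 12.7% in control isotype. In isotype mice the level of the iron genes varied by cluster. Slc40a1 stood highest in cluster 1 at 130 ± 86.3 CPM, then cluster 3 at 97.5 ± 71.0 CPM and cluster 8, led by Mmp12 and Atp6v0d2, at 63.9 ± 31.4 CPM, and neighbours in that order did not differ beyond their SD. Fth1 stood highest in cluster 8 at 41743 ± 4674 CPM and lowest in cluster 9, led by Vcam1, at 15804 ± 1199 CPM. Tfrc stood highest in cluster 3 at 108 ± 42.9 CPM and the cycling cluster 10 at 81.0 ± 36.5 CPM, and lowest in cluster 14 at 16.4 ± 5.63 CPM. Hmox1 stood highest in cluster 8 at 3160 ± 977 CPM and lowest in cluster 9 at 672 ± 313 CPM.

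Slc40a1 was again lower after anti-CD40 within single clusters, whose make-up was not held fixed. In cluster 1 the 5 B2m-null isotype mice held 130, 115, 192, 166 and 221 CPM of Slc40a1. The 4 anti-CD40 mice held 2.97, 20.8, 72.5 and 16.3 CPM. In cluster 3 they held 256, 80.3, 113, 105 and 151 CPM and 1.93, 10.8, 40.9 and 27.2 CPM, again with no overlap. Over the 7 clusters and 4 comparisons, 168 gene and cluster combinations could be tested and 23 passed by edgeR's quasi-likelihood test with Benjamini-Hochberg adjustment, 10 up and 13 down, with 60 at an unadjusted p under 0.05 and 16 by DESeq2. For anti-CD40 in B2m-null tumours the share of all genes that passed was 12.8%, 18.3%, 0.448%, 13.5%, 7.64%, 24.6% and 7.51% in clusters 1, 3, 5, 8, 9, 10 and 14. In control tumours it was 12.2%, 2.39%, 4.22%, 12.1%, 3.74%, 5.14% and 7.79%. For genotype it was 0.064% to 4.12% under isotype and 0.582% to 4.38% under anti-CD40, with 3.84% in cluster 1 and 3.2% in cluster 3, and for the difference of the anti-CD40 effects 0.032% to 4.34%, with 3.22% in cluster 1.

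Slc40a1 fell with anti-CD40 in 4 of 7 clusters of B2m-null tumours: cluster 1 (-2.07 ± 0.561, adjusted p = 0.0148), cluster 3 (-2.43 ± 0.449, adjusted p = 0.000704), cluster 8 (-1.90 ± 0.292, adjusted p = 0.000224) and cluster 10 (-2.46 ± 0.528, adjusted p = 0.00229), all by edgeR's quasi-likelihood test. In cluster 1 the call ended without the second B2m-null isotype pool (-1.67, adjusted p = 0.119) and without the first anti-CD40 pool (-1.67, adjusted p = 0.0751). By DESeq2 neither cluster 1 (-2.37, adjusted p = 0.0567) nor cluster 10 (-2.46, adjusted p = 0.0614) passed. Without the second anti-CD40 pool the change was -4.39 in cluster 1, -4.48 in cluster 3 and -5.14 in cluster 10, and without the first it was -1.65 in cluster 10. The fitted change was negative in 7 of 7. In control tumours Slc40a1 fell in 3 of 7: cluster 1 (-3.90 ± 0.926, adjusted p = 0.00624), cluster 5 (-2.06 ± 0.538, adjusted p = 0.0297) and cluster 8 (-1.64 ± 0.381, adjusted p = 0.00581), and was negative in 6 of 7. In cluster 1 the change was -3.04 without the first anti-CD40 lane, -5.91 without the second, -4.95 with stricter cell filters and -3.05 after thinning. The call in cluster 5 ended without the second control isotype pool (-1.06, adjusted p = 0.631) and without the second anti-CD40 lane (-1.81, adjusted p = 0.0684), and it did not pass by DESeq2 (-1.94, adjusted p = 0.116). Under isotype the B2m-null level was above the control level in 7 of 7 clusters and passed in cluster 10 (1.69 ± 0.463, adjusted p = 0.0442), where 4.12% of all genes passed. That call ended on leaving out any of the 4 isotype pools (1.33 to 2.22), by DESeq2 (1.93, adjusted p = 0.337), with stricter cell filters (1.53, adjusted p = 0.075) and with lanes as the unit (1.62, adjusted p = 0.126). Weighting every group by the same isotype cluster shares gave Slc40a1 levels of 46.0 and 20.4 CPM in control tumours without and with anti-CD40, against 36.3 and 11.02 CPM as measured. The same weighting gave 103 and 19.7 CPM in B2m-null tumours, against 115 and 17.7 CPM as measured. A measured level weights clusters by their UMIs and the weighted level by cells, so their gap is not the effect of cluster shares alone.

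Fth1, the ferritin heavy chain gene, passed in cluster 8 in control tumours (0.68 ± 0.115, adjusted p = 0.000292) and in B2m-null tumours (0.60 ± 0.109, adjusted p = 0.000938, edgeR's quasi-likelihood test), from 42444 to 59378 CPM and from 40576 to 55210 CPM. It passed in cluster 14 in control tumours (1.16 ± 0.281, adjusted p = 0.0108) and in B2m-null tumours (1.19 ± 0.277, adjusted p = 0.0135), and in cluster 9 in B2m-null tumours (0.69, adjusted p = 0.00464). The cluster 9 call ended without the second anti-CD40 pool (0.47, adjusted p = 0.0796). The cluster 14 calls ended without the first control isotype pool (1.03, adjusted p = 0.0834), and in B2m-null tumours without the first isotype pool or with at least 50 cells per mouse (0.92, adjusted p = 0.0572, in both) and without the second anti-CD40 pool (0.92, adjusted p = 0.218). Its change was positive in 7 of 7 clusters in both tumour genotypes. At fixed isotype cluster shares of cells Fth1 went from 22867 to 29233 CPM in control and from 22122 to 29981 CPM in B2m-null tumours. Measured means, which weight clusters by UMIs, were 22940 and 35386 CPM and 21810 and 33626 CPM in the same order.

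Ftl1 and Slc11a1 passed in single clusters. In cluster 14 of B2m-null tumours Ftl1 rose with anti-CD40 from a mean of 8723 (5718 to 12755 in 3 mice) to 14215 CPM (11546 to 16484 in 4 mice), a change of 0.87 ± 0.244 (adjusted p = 0.0324, edgeR's quasi-likelihood test). The call ended without the first isotype pool or with at least 50 cells per mouse (0.615, adjusted p = 0.126, in both) and without the second anti-CD40 pool (0.62, adjusted p = 0.336). The change of Ftl1 was positive in 7 of 7 clusters of B2m-null tumours and in 2 of 7 of control tumours. In cluster 8 of B2m-null tumours Slc11a1 rose from 110 ± 10.9 to 141 ± 8.96 CPM (0.51, adjusted p = 0.0207, edgeR's quasi-likelihood test), a call kept in 10 of 15 alternative settings. It ended after thinning (0.33, adjusted p = 0.295), with stricter cell filters (0.44, adjusted p = 0.0877), without the first B2m-null isotype pool (0.49, adjusted p = 0.0557) and without the first (0.52, adjusted p = 0.0504) or second (0.49, adjusted p = 0.173) anti-CD40 pool. In cluster 10 it was lower in B2m-null than in control tumours under isotype, at 86.0 ± 9.22 against 146 ± 29.1 CPM (-0.80, adjusted p = 0.0131, edgeR's quasi-likelihood test). That call was kept in 11 of 16 alternative settings and ended on leaving out any of the 4 isotype pools (-0.97 to -0.72).

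Tfrc fell in 1 cluster of B2m-null tumours and rose in 2 clusters of control tumours, and clusters were not tested against each other. In cluster 3 of B2m-null tumours it fell from a mean of 132 to 40.5 CPM (-1.65 ± 0.286, adjusted p = 0.000393, edgeR's quasi-likelihood test). In cluster 14 of control tumours it rose from 14.8 to 46.5 CPM (1.71 ± 0.294, adjusted p = 0.000541), with 59.4 and 33.6 CPM in the 2 anti-CD40 mice above 10.8 to 19.4 CPM in the 5 isotype mice. In cluster 8 of control tumours it rose as well (0.82 ± 0.239, adjusted p = 0.0257), and the genotypes differed there under anti-CD40 (-0.87 ± 0.243, adjusted p = 0.0483), where 3.39% of all genes passed. The rise in cluster 8 did not pass without the first control isotype pool (0.64, adjusted p = 0.139) or the first anti-CD40 lane (0.72, adjusted p = 0.109), by DESeq2 (0.86, adjusted p = 0.052) or after thinning (1.00, adjusted p = 0.0746). The genotype call there ended without either control anti-CD40 lane (-0.77, adjusted p = 0.117, and -0.92, adjusted p = 0.0756) and without the second B2m-null anti-CD40 pool (-0.45, adjusted p = 0.624), with lanes as the unit (-0.81, adjusted p = 0.0697) and after thinning (-0.76, adjusted p = 0.269). The difference of the anti-CD40 effects in cluster 8 was -1.26 (adjusted p = 0.0509). Hmox1 fell with anti-CD40 in cluster 8 of control tumours (-1.03, adjusted p = 0.00954) and in clusters 3 (-0.94, adjusted p = 0.0139) and 10 (-1.34, adjusted p = 0.0112) of B2m-null tumours, by edgeR's quasi-likelihood test. The call in cluster 8 ended by DESeq2 (-1.02, adjusted p = 0.0501). The call in cluster 3 ended by DESeq2 (-0.93, adjusted p = 0.0525), after thinning (-0.78, adjusted p = 0.0507) and without the second B2m-null isotype pool (-0.84, adjusted p = 0.0513), the first anti-CD40 pool (-0.74, adjusted p = 0.158) or the second (-1.19, adjusted p = 0.0562). The call in cluster 10 ended without the second isotype pool (-1.31, adjusted p = 0.0506) or the first anti-CD40 pool (-0.95, adjusted p = 0.142).

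**Figure D3:**
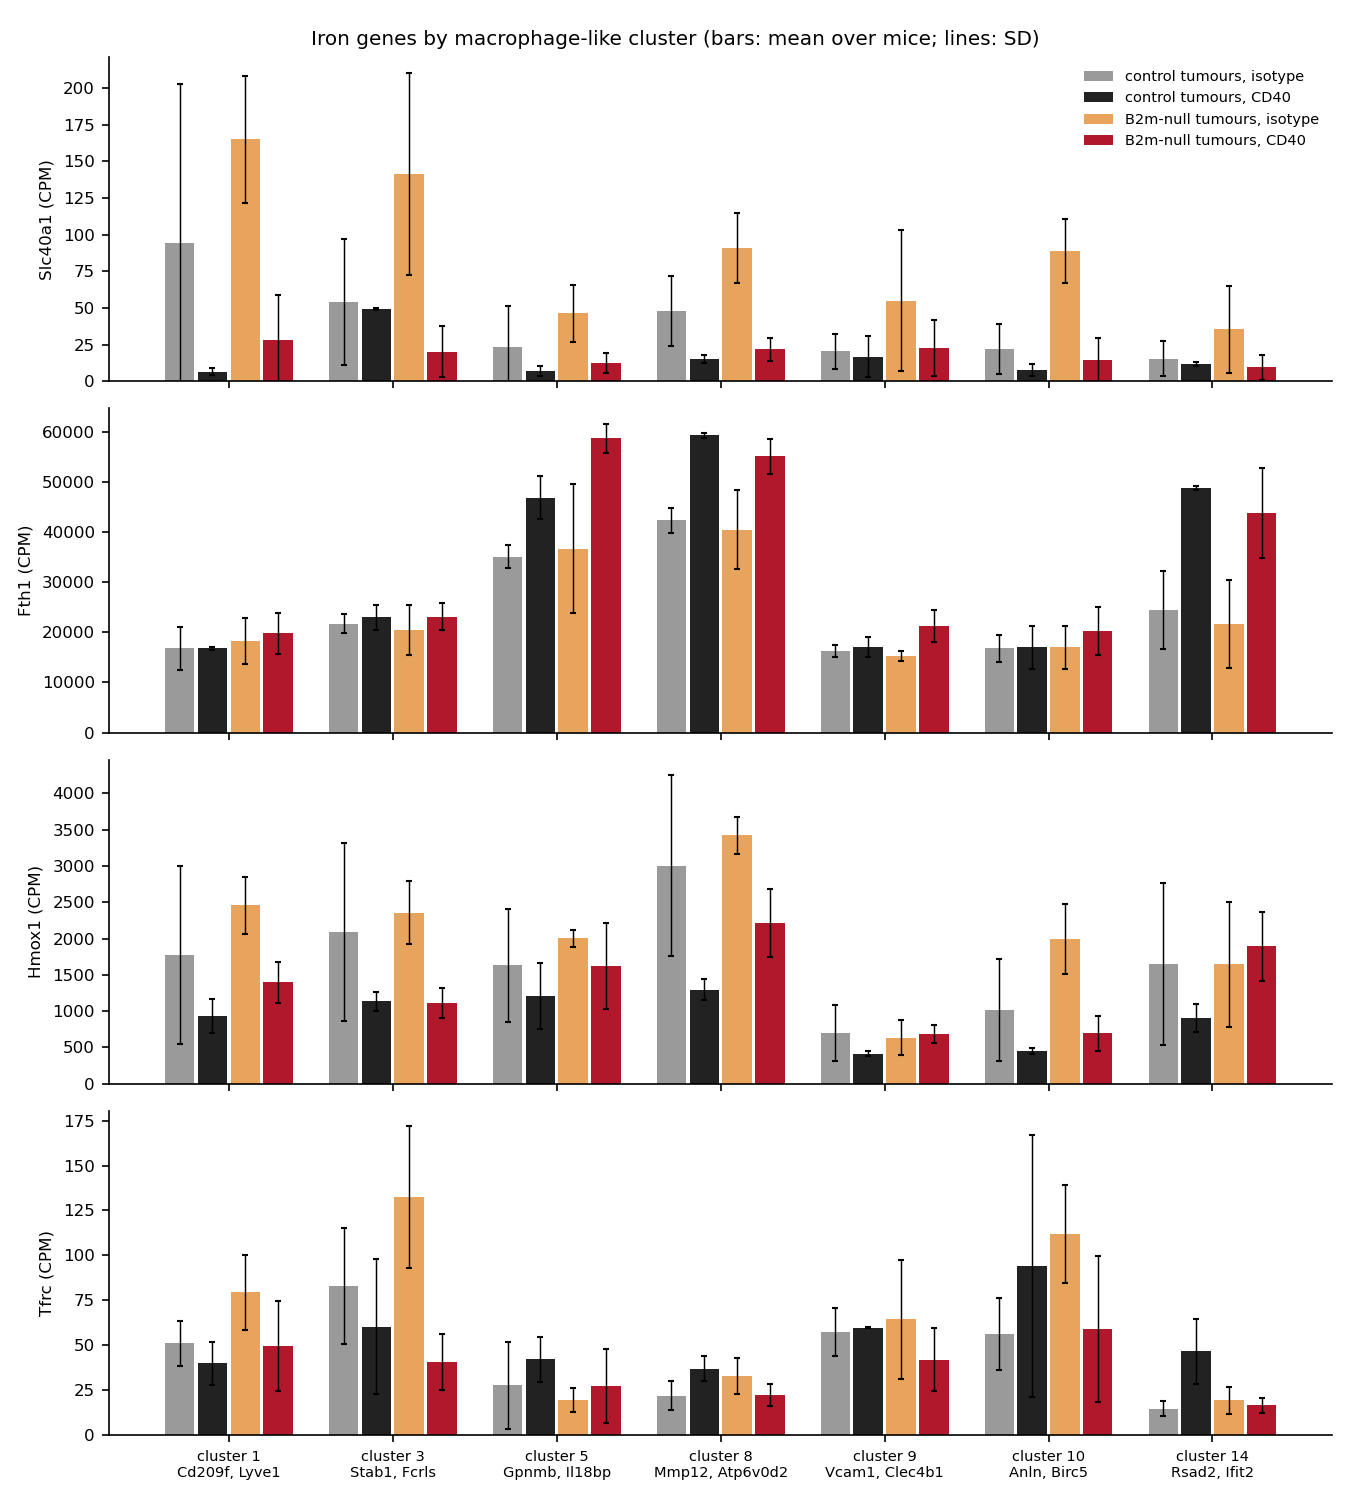
Mean level of 4 iron genes in the 7 macrophage-like clusters, in CPM on linear axes from 0, with bars for the mean over mice and lines for the SD, and the clusters named by their leading genes. Slc40a1 of B2m-null isotype tumours is the tallest bar in every cluster, and Fth1 of clusters 5, 8 and 14 is taller with anti-CD40 in both tumour genotypes.

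Monocyte-like cells, the circulating precursors that enter tumours and become macrophages, numbered 2050, 521, 1394 and 569 in control isotype, control anti-CD40, B2m-null isotype and B2m-null anti-CD40, at median depths of 2409, 1786, 3256 and 3533 UMIs. After anti-CD40 in B2m-null tumours both ferritin genes, Slc11a1 and Lcn2 rose, 4 of 7 genes, where 15.7% of all genes passed, 8.83% up and 6.84% down. In control tumours 0 of 7 passed by edgeR's quasi-likelihood test, with 3 at an unadjusted p under 0.05 and 0 by DESeq2, where 4.07% of all genes passed, 2.56% up. Under isotype the tumour genotypes differed in 0 of 7 by the same test, with 3 at an unadjusted p under 0.05 and 0 by DESeq2, where 1.85% of all genes passed, 0.546% higher in B2m-null tumours. Under anti-CD40 they differed in 2 of 7, Fth1 and Ftl1, both higher in B2m-null tumours, where 3.94% of all genes passed, 2.33% higher and 1.61% lower. The anti-CD40 effects differed between genotypes for the same 2 genes, where 7.09% of all genes passed, 4.38% more positive and 2.7% more negative in B2m-null tumours. At an unadjusted p under 0.05 there were 1335 of 7692 genes for anti-CD40 in control tumours and 946 for genotype under isotype.

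Fth1 in monocyte-like cells stood at 8325, 8679, 6913, 7247 and 9121 CPM in B2m-null isotype mice and at 11832, 12842, 12094 and 11051 CPM in B2m-null mice with anti-CD40. The groups did not overlap, and this held for 2 of 7 genes, Fth1 and Slc11a1, where 9.63% of all genes with a mean of at least 1 CPM were without overlap. The rise was 0.70 ± 0.11, a ratio of 1.63 (adjusted p = 0.000161, edgeR's quasi-likelihood test), and passed in 17 of 17 alternative settings. Control mice went the other way, from 7831, 8278, 9373, 12233 and 10014 CPM under isotype to 7637 and 7733 CPM with anti-CD40, below all isotype mice, but that change of -0.27 ± 0.14 did not pass (adjusted p = 0.328). The difference of the anti-CD40 effects was 0.97 ± 0.18 (adjusted p = 0.00145, edgeR's quasi-likelihood test), and under anti-CD40 B2m-null tumours were higher by 0.68 ± 0.147 (adjusted p = 0.0121). The genotype difference did not pass without the first control anti-CD40 lane (0.49, adjusted p = 0.0555), without the second B2m-null anti-CD40 pool (0.69, adjusted p = 0.0677), after thinning to 2000 UMIs (0.52, adjusted p = 0.0514) or with lanes as the unit (0.65, adjusted p = 0.288). The difference of effects did not pass with lanes as the unit (1.06, adjusted p = 0.144). In natural killer-like cells Fth1 went with anti-CD40 from 1619 to 2929 CPM in B2m-null and from 2298 to 1941 CPM in control tumours. In CD4 T-like cells it fell in both, from 3103 to 2482 CPM and from 2658 to 2067 CPM. B-like cells went from 8718 to 8091 CPM and from 5372 to 6714 CPM. These natural killer-like, CD4 T-like and B-like classes were not tested. In cDC2-like cells Fth1 went from 7889 to 8269 CPM in B2m-null and from 7533 to 4480 CPM in control tumours. The difference of effects there was 0.88 ± 0.334 and did not pass (adjusted p = 0.178, edgeR's quasi-likelihood test). The Fth1 difference is thus not shown to be particular to monocyte-like cells.

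Ftl1 passed beside Fth1 in monocyte-like cells of B2m-null tumours, and the 2 cell classes were not tested against each other. B2m-null isotype mice held 3464, 2883, 2251, 4003 and 5364 CPM and anti-CD40 mice 4314, 5059, 5998 and 5885 CPM, with overlap through 1 isotype mouse. The rise was 0.69 ± 0.168 (adjusted p = 0.0072, edgeR's quasi-likelihood test), and it did not pass without the first B2m-null isotype pool (0.28, adjusted p = 0.229), without the second anti-CD40 pool (0.46, adjusted p = 0.234) or with lanes as the unit (0.67, adjusted p = 0.119). Control mice held 3946, 4490, 4973, 5555 and 4865 CPM under isotype and 2926 and 2918 CPM with anti-CD40, all isotype mice above both anti-CD40 mice, with a change of -0.66 ± 0.217 that did not pass (adjusted p = 0.0842). The difference of the anti-CD40 effects was 1.35 ± 0.276 (adjusted p = 0.00355, edgeR's quasi-likelihood test). It did not pass with lanes as the unit (1.37, adjusted p = 0.161). Under anti-CD40 B2m-null tumours were higher by 0.92 ± 0.226 (adjusted p = 0.023), a call that ended without the second B2m-null anti-CD40 pool (0.68, adjusted p = 0.251) and with lanes as the unit (0.91, adjusted p = 0.289).

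Slc11a1 in monocyte-like cells rose in B2m-null tumours from a mean of 95.0 to 134 CPM (0.51 ± 0.154, adjusted p = 0.027, edgeR's quasi-likelihood test), and all 4 anti-CD40 mice were above all 5 isotype mice. The groups nearly touched, at 124.29 CPM in the lowest anti-CD40 and 123.28 CPM in the highest isotype mouse. Control tumours held 141 and 143 CPM without and with anti-CD40. The call ended without the first B2m-null isotype pool (0.37, adjusted p = 0.144), without the first (0.52, adjusted p = 0.0531) or second (0.47, adjusted p = 0.265) anti-CD40 pool, with stricter cell filters (0.49, adjusted p = 0.0663), after thinning (0.44, adjusted p = 0.221) and with lanes as the unit (0.46, adjusted p = 0.165).

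Lcn2 in monocyte-like cells of B2m-null tumours stood at 2.29, 56.1, 56.7 and 11.2 CPM with anti-CD40, from 1, 12, 60 and 7 UMIs, and at 0 to 10.5 CPM under isotype. The first anti-CD40 mouse lay inside the isotype range and the others above it. The rise was 3.00 ± 0.608 (adjusted p = 0.00169, edgeR's quasi-likelihood test), a fitted ratio of 7.99, and it passed in 12 of 12 alternative settings. Fewer alternatives gave a result for Lcn2 than for Fth1 in the same cells. Of the anti-CD40 UMIs, 60 came from 1 mouse of the second pool. The change was 4.28 without the second B2m-null isotype pool, 3.81 with lanes as the unit and 4.82 with finer clustering. The 7 neutrophil markers summed in the same monocyte-like cells to 206 CPM (179 to 242) in control isotype, 154 CPM (151 to 157) in control anti-CD40. In B2m-null tumours the sum was 169 CPM (120 to 206) under isotype and 423 CPM (155 to 733) with anti-CD40. S100a8 stood at 226 ± 239 CPM in the last group, and Retnlg, a neutrophil gene, was at 0 there. The part of neutrophil RNA in this Lcn2 level was not tested.

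Slc40a1 was rare in monocyte-like cells, with 31 UMIs in control isotype, 22 in B2m-null isotype and 6 in B2m-null anti-CD40. In control tumours with anti-CD40 it had 0 UMIs in 521 cells and 1147147 UMIs, below all 5 isotype mice, which held 1.38 to 10.3 CPM. No fold is given for so few counts. For anti-CD40 in control tumours 4 of 7 genes were without overlap in monocyte-like cells, Slc40a1, Fth1 and Ftl1 lower and Lcn2 higher, where 25.2% of all genes were. Of these, Lcn2 rests on 2 and 4 UMIs in the anti-CD40 mice and 1 to 3 in each isotype mouse. Fth1 was narrowly apart, at 7732.7 CPM in the highest anti-CD40 and 7831.5 CPM in the lowest isotype mouse. For genotype under anti-CD40 it was 4 of 7 as well, Fth1, Ftl1 and Hmox1 higher and Tfrc lower in B2m-null tumours, where 22.6% of all genes were. Hmox1 had means of 482, 245, 495 and 359 CPM and Tfrc of 21.1, 27.9, 26.0 and 15.5 CPM in the order of groups above, and neither passed in any of the 4 comparisons.

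**Figure D4:**
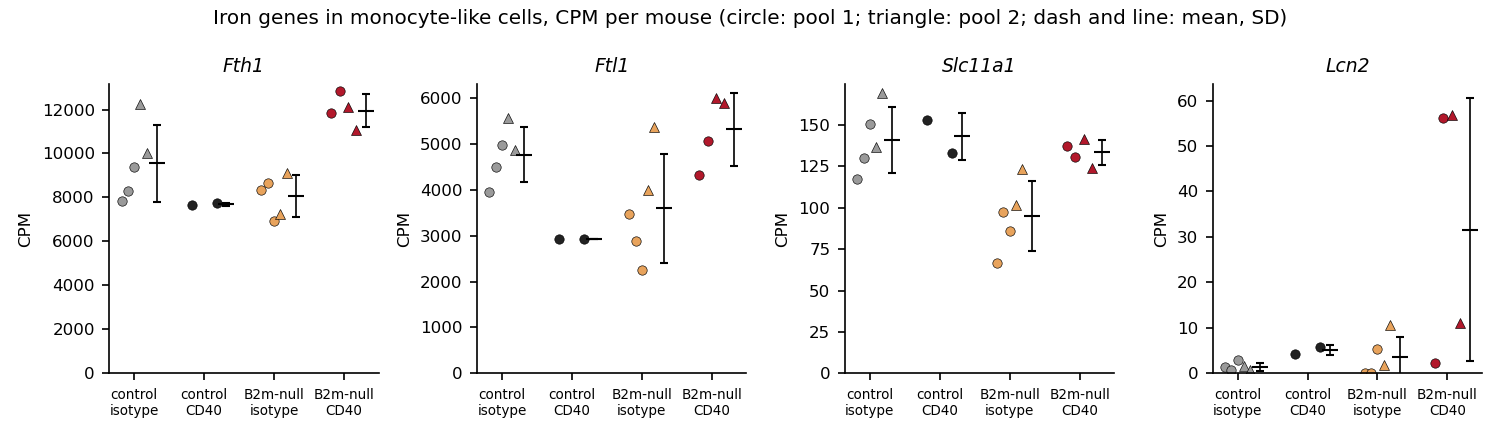
Level of 4 iron genes in monocyte-like cells, in CPM on linear axes from 0, with 1 point per mouse (circles for the first pool, triangles for the second) and a dash and line for the mean and SD. Fth1 of the 4 B2m-null mice with anti-CD40 lies between 11051 and 12842 CPM, above the 5 B2m-null isotype mice and both control mice with anti-CD40.

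Dendritic cells present antigen and were tested in 3 classes, cDC1-like, cDC2-like and mature DC-like. Of 40 combinations of gene, class and comparison with enough mice, 0 passed by edgeR's quasi-likelihood test with Benjamini-Hochberg adjustment, with 11 at an unadjusted p under 0.05 and 3 by DESeq2. Of all genes 2.96% and 4.52% passed in cDC2-like cells for anti-CD40 in control and in B2m-null tumours, and 1.42% in cDC1-like cells for anti-CD40 in control tumours. For genotype under isotype 0.873% passed in cDC1-like, 1.96% in cDC2-like and 0.264% in mature DC-like cells, and in cDC2-like cells 0.654% passed for genotype under anti-CD40 and 2.34% for the difference of the anti-CD40 effects. The nearest was Ftl1 in cDC2-like cells of control tumours, with means of 3005 CPM under isotype and 1300 CPM with anti-CD40 (-1.14 ± 0.319, adjusted p = 0.0541). In B2m-null tumours the same means were 3188 and 2871 CPM. Hmox1 in cDC2-like cells had means of 359 and 39.8 CPM in control tumours and of 407 and 211 CPM in B2m-null tumours. Slc40a1 in cDC2-like cells had means of 3.60, 0, 15.4 and 3.46 CPM in the order of groups above, and Tfrc of 42.9, 69.8, 46.5 and 21.1 CPM. In cDC1-like cells Fth1 had means of 4139, 3201 and 5244 CPM in the first 3 groups, and the single B2m-null mouse with anti-CD40 and enough cells held 7495 CPM.

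Across cell classes of the 10 isotype mice, 2 classes led for most iron genes. Slc40a1 stood highest in neutrophil-like cells at 184 ± 43.5 CPM (4 mice with enough cells), then macrophage-like cells at 75.5 ± 48.3 CPM, with overlapping ranges of 126 to 224 CPM and 8.36 to 150 CPM. All other named classes had means of at most 14.2 CPM. Fth1 had the same leaders, 29366 ± 6462 CPM in neutrophil-like and 22375 ± 4275 CPM in macrophage-like cells, followed by plasmacytoid DC-like cells at 12053 ± 3500 CPM and monocyte-like cells at 8801 ± 1532 CPM. Hmox1 led in macrophage-like cells at 1968 ± 729 CPM, then neutrophil-like cells at 1501 ± 858 CPM, and Ftl1 likewise at 9201 ± 2613 and 8225 ± 3619 CPM, in both cases closer than their SD.

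Tfrc had another order, with melanoma-like cells at 245 ± 7.70 CPM, plasmacytoid DC-like cells at 200 ± 37.8 CPM and CD8 T-like cells at 191 ± 36.1 CPM. Macrophage-like cells held 69.3 ± 25.5 CPM of Tfrc, and every melanoma-like value (236 to 258 CPM) lay above every macrophage-like value (32.4 to 107 CPM). Slc11a1 stood at 208 ± 98.3 CPM in non-classical monocyte-like cells, at 133 ± 19.3 CPM in neutrophil-like, at 131 ± 33.0 CPM in macrophage-like and at 118 ± 30.9 CPM in monocyte-like cells, neighbours within their SD. Lcn2 stood at 327 ± 223 CPM in neutrophil-like and 93.5 ± 26.3 CPM in fibroblast-like cells and at 2.5 ± 3.23 CPM in monocyte-like cells.

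**Figure D5:**
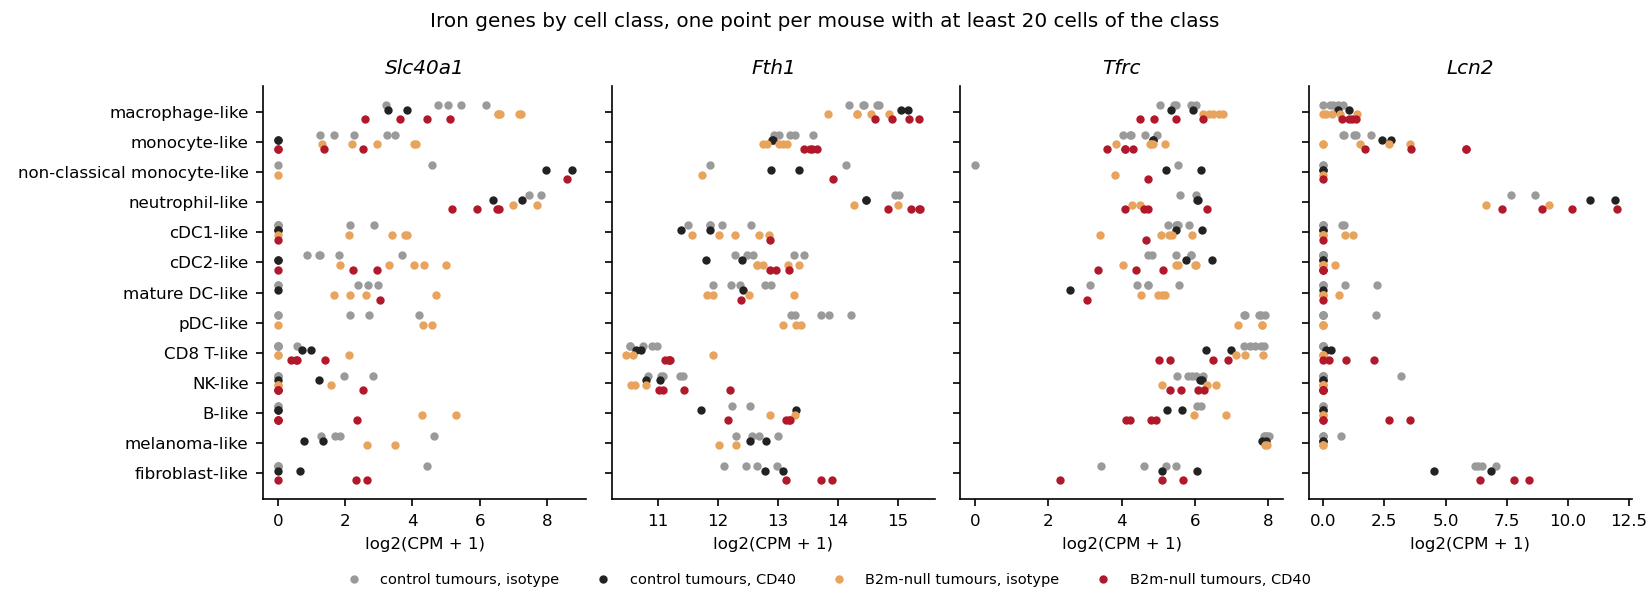
Level of 4 iron genes by cell class as log2(CPM + 1), with 1 point per mouse that had at least 20 cells of the class, coloured by group. Under isotype, Slc40a1 is high in macrophage-like and neutrophil-like cells and Lcn2 in neutrophil-like and fibroblast-like cells. Tfrc is high under isotype in melanoma-like, plasmacytoid DC-like and CD8 T-like cells.

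A wider list of 46 other iron genes was read in macrophage-like cells, where 39 could be tested. With anti-CD40 in B2m-null tumours 16 of 39 passed, 9 up and 7 down (41%, against 31.9% of all genes), and in control tumours 8 passed, 6 up and 2 down (20.5%, against 21.6%). Under isotype 4 differed by genotype, 3 higher and 1 lower in B2m-null tumours (10.3%, against 7.82%). The median log2 change of the list was 0.02 for anti-CD40 in B2m-null tumours and -0.05 in control tumours, against -0.01 for all genes in both. Genes of haem and haemoglobin uptake passed in 2 of 4 for genotype under isotype (50%, against 7.82%). For anti-CD40 in B2m-null tumours 1 of 4 passed (25%, against 31.9%). Cd163, the haemoglobin scavenger receptor gene, fell from 70.6 ± 34.1 to 12.7 ± 2.41 CPM (-2.20 ± 0.422, adjusted p = 0.000934, edgeR's quasi-likelihood test), or by -1.52 after thinning. Cd163 also differed by genotype under isotype, with 22.3 ± 14.2 CPM in control tumours (1.64 ± 0.383, adjusted p = 0.0167), as did the haem and folate transporter gene Slc46a1 (1.30 ± 0.296, adjusted p = 0.0152). The Cd163 genotype call ended without the first (1.80, adjusted p = 0.0991) or second (1.51, adjusted p = 0.0854) control isotype pool and without the first B2m-null isotype pool (1.70, adjusted p = 0.0512). The Slc46a1 call ended without the first control (1.20, adjusted p = 0.201) or the first B2m-null (1.13, adjusted p = 0.116) isotype pool, and with lanes as the unit.

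In mitochondrial iron use and haem synthesis 3 of 10 genes rose with anti-CD40 in B2m-null tumours and 0 fell (30%, against 31.9% of all genes that passed). Alas1, the first enzyme of haem synthesis, went from 43.0 ± 6.35 to 84.3 ± 15.9 CPM (1.16 ± 0.148, adjusted p = 4.26e-05, edgeR's quasi-likelihood test). In control tumours 1 of 10 rose (10%, against 21.6%), Slc25a37, which encodes the iron importer mitoferrin 1, from 24.3 ± 3.08 to 38.6 ± 6.81 CPM (0.80 ± 0.129, adjusted p = 0.000347). Slc39a8, a zinc and iron importer gene of the import list, was low and fell in both tumour genotypes, from 4.63 to 2.41 CPM in control (-0.92 ± 0.264, adjusted p = 0.0196) and from 8.29 to 3.17 CPM in B2m-null tumours (-1.18 ± 0.211, adjusted p = 0.000566). The B2m-null call of Slc39a8 held in 19 of 19 alternative settings and the control call in 12 of 18 (-1.02 to -0.60, adjusted p up to 0.135). The control call ended without the second isotype pool, with stricter cell filters, with lanes as the unit, after thinning and with monocyte-like cells pooled in, with or without the unnamed myeloid clusters. Of the import list 4 of 8 passed in control tumours, 3 up and 1 down (50%, against 21.6%). In B2m-null tumours 3 of 8 passed, 1 up and 2 down (37.5%, against 31.9%). Of iron sensing and ferritin turnover 1 of 6 passed in control tumours, upward (16.7%, against 21.6%). In B2m-null tumours 4 of 6 passed, 1 up and 3 down (66.7%, against 31.9%). Bdh2, a dehydrogenase gene of the siderophore list, rose there from 1.39 ± 0.365 to 12.3 ± 13.2 CPM (3.11 ± 0.641, adjusted p = 0.00159), with anti-CD40 mice spread from 2.66 to 31.6 CPM and a change of 1.65 without the first anti-CD40 pool and 3.94 without the second. It was 1.18 with finer clustering, which set apart an unnamed cluster of 393 cells led by Mmp9, Ctsk and Acp5, with Bdh2 among its 10 leading genes. That cluster held 1.67% of B2m-null anti-CD40 cells and at most 0.13% in the other groups, and its part in the Bdh2 change was not tested.

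Some genes of the wider list are given here for the comparisons in which they passed. In control tumours anti-CD40 raised Fbxl5, a subunit of the ubiquitin ligase that degrades iron regulatory protein 2, from 102 ± 33.3 to 171 ± 33.8 CPM (0.85 ± 0.246, adjusted p = 0.0197, edgeR's quasi-likelihood test), a call that held in 13 of 18 alternative settings. It ended without the first isotype pool (0.64, adjusted p = 0.192), with stricter cell filters, with lanes as the unit, with finer clustering and with monocyte-like cells and the unnamed myeloid clusters pooled in. Steap4, a metal reductase gene, had means of only 0.455 and 2.28 CPM there (2.40 ± 0.791, adjusted p = 0.0379). That call ended without the first (3.35, adjusted p = 0.0597) or second (1.69, adjusted p = 0.229) isotype pool and without the first anti-CD40 lane (1.58, adjusted p = 0.185), and with lanes as the unit, and turned to -0.195 with finer clustering. Under isotype, B2m-null tumours were lower in Blvrb, for biliverdin reductase B (-0.63 ± 0.15, adjusted p = 0.0185), and higher in Slc39a8 (0.81 ± 0.194, adjusted p = 0.019). Both calls ended without the first control isotype pool (-0.49, adjusted p = 0.302, and 0.71, adjusted p = 0.228) and without the first B2m-null isotype pool (-0.45, adjusted p = 0.227, and 0.81, adjusted p = 0.115), and that of Slc39a8 also without the second (0.83, adjusted p = 0.0534). Neither passed with lanes as the unit, and that of Slc39a8 ended after thinning as well.

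Under anti-CD40, 4 of 39 differed by genotype (10.3%, against 11.8% of all genes), with Hmox2, the constitutive haem oxygenase gene, higher in B2m-null tumours and Mcoln1, Slc25a37 and Slc11a2 lower, by -0.50 to -0.41 on the log2 scale. Each of these 4 calls ended on leaving out a lane, with lanes as the unit and with finer clustering, and they held in 14, 8, 12 and 13 of 18 alternative settings in the order named. The anti-CD40 effects differed between genotypes for 5 of 39 (12.8%, against 16.3%). Hmox2 had means of 101 CPM under isotype and 70.8 CPM under anti-CD40 in control tumours, and of 81.1 and 100.3 CPM in B2m-null tumours (difference 0.85 ± 0.18, adjusted p = 0.00612, edgeR's quasi-likelihood test). Mcoln1, an endolysosomal ion channel gene, had means of 11.7 and 17.1 CPM in control tumours and of 17.7 and 11.7 CPM in B2m-null tumours (difference -0.90 ± 0.208, adjusted p = 0.00927). The Mcoln1 difference did not pass without the first control isotype pool (-0.74, adjusted p = 0.0584). With lanes as the unit neither difference passed (0.83, adjusted p = 0.141, for Hmox2, and -0.80, adjusted p = 0.139, for Mcoln1).

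Of 8 targets of NRF2, the oxidant-response factor that also drives Hmox1 and the ferritin genes, 3 passed with anti-CD40 in B2m-null tumours (37.5%, against 31.9% of all genes). The cystine transporter gene Slc7a11 (1.39 ± 0.293, adjusted p = 0.00183) and the peroxiredoxin gene Prdx1 (0.60 ± 0.191, adjusted p = 0.0246) rose, and Gclc, for glutathione synthesis, fell (-0.51 ± 0.178, adjusted p = 0.0369). In control tumours 1 of 8 passed (12.5%, against 21.6%), Prdx1, which rose (0.96 ± 0.23, adjusted p = 0.00684). The control Prdx1 call ended without the first isotype pool (0.99, adjusted p = 0.0513), and the B2m-null one without the first isotype pool (0.49, adjusted p = 0.107) or the second anti-CD40 pool (0.33, adjusted p = 0.322). The Gclc call ended without the first isotype pool (-0.36, adjusted p = 0.217) and without either anti-CD40 pool (-0.60, adjusted p = 0.0557, and -0.40, adjusted p = 0.253). With lanes as the unit none of the 3 Prdx1 and Gclc calls passed. The B2m-null calls of Prdx1 and Gclc also ended with stricter cell filters, and that of Gclc after thinning and with monocyte-like cells pooled in.

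The genes most like each iron gene across the 16 mice were read from macrophage-like cells as Pearson's r of log2(CPM + 1) over 7578 genes. These are descriptions over mice that share lanes and groups. Slc40a1 was most like Cnrip1 (0.917), Nisch (0.909) and Myo5a (0.908). Hmox1 was most like Ptgr1 (0.910), a reductase, and Fth1 most like Gde1 (0.952) and Gpx4 (0.925), the lipid peroxide reductase. Ftl1 was most like Cd68 (0.937), a lysosomal macrophage protein, and its copy Ftl1-ps1 (0.922). Tfrc was most like Mid1ip1 (0.903) and Csnk2a1 (0.893), Slc11a1 most like Gpsm3 (0.919), and Lcn2, which had few counts, most like Mbd6 (0.744).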

How the data were processed

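CD45-positive tumour cells of 16 mice were measured by 10x single-cell RNA sequencing with hashtag antibodies, in 8 gene expression and 8 hashtag libraries. The authors deposited raw UMI counts per gene and barcode, made with Cell Ranger 3.0.0 and bcl2fastq 2.20.0.422 on mm10 per the submitters' processing notes, and hashtag counts per barcode. The labels list 3 hashtags, and 2 of 8 files hold 3 and the others 2. Mice were assigned by a Gaussian mixture of log hashtag counts, with a minimum of 20 hashtag counts and a posterior of 0.9, and 9673 barcodes (8.30%) in which 2 hashtags exceeded their background by 2.5 SD were dropped as doublets. A further 23765 barcodes had no assignment and were not used in tests by mouse. Doublets of cells from the same mouse were not removed.

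Cells were kept with 200 or more genes and no more than 10% of counts from mitochondrial genes. The 91462 cells that passed, with or without an assigned mouse, were clustered with Leiden in scanpy 1.11.5 and leidenalg 0.10.2 (2000 variable genes without the iron genes, 40 components, 20 neighbours, resolution 1), which gave 29 clusters. Clusters were named from fixed markers and left unnamed where under 3 markers were raised or another class led. Counts were summed per mouse and class with at least 20 cells, over both lanes for control tumours with anti-CD40, and levels are CPM of those sums. Tests were edgeR 4.0.16 quasi-likelihood fits (R 4.3.3) over all genes and all 4 groups, with TMM scaling and edgeR's expression filter, and Benjamini-Hochberg adjustment at 0.05 over all genes tested. P-values measure the spread between mice. The test script was tested on simulated data.

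Mice of a pool shared a lane. The alternatives were DESeq2 1.42.0, RLE scaling, no filter on low counts, stricter cell filters, at least 50 cells per mouse, lanes as the unit, thinned cells, finer clustering, pooled myeloid classes, a replicate block and leaving out each lane. The 7 genes and the lists were chosen with earlier results of these data known. The genes named were the 7, up to 4 genes of the wider list per comparison by size of change among those with an adjusted p under 0.05, the NRF2 targets that passed, and the genes most like each by r. Genes named from the NRF2 list and single clusters were chosen after their values were seen. Precision is limited by 2 mice in control tumours with anti-CD40. UTRs and positions were read from the GRCm38 genome and its annotation.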

Additional observations from a re-analysis of the deposited data

Results flagged for a closer look

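In a group of 4 or 5 mice, 2 values lay far from the rest by Dixon's test. Chance alone does so in about 1 of 20 groups, and 42 groups were tested. Slc11a1 in macrophage-like cells stood at 115.1 CPM in the second control isotype mouse, and its other 4 mice lay between 161.7 and 179.4 CPM. Hmox1 in monocyte-like cells stood at 226.1 CPM in the first B2m-null isotype mouse, and the other 4 lay between 526.8 and 585.5 CPM. The low Hmox1 value rests on 34 UMIs.

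The anti-CD40 effect differed between tumour genotypes for both ferritin genes in monocyte-like cells, by edgeR's quasi-likelihood test of the difference with Benjamini-Hochberg adjustment. For Ftl1 the effect was more positive in B2m-null tumours by 1.35 ± 0.276 (log2, SE, adjusted p = 0.00355) and for Fth1 by 0.971 ± 0.18 (adjusted p = 0.00145). Neither test passed with lanes as the unit, where the adjusted p was 0.161 and 0.144. Mean Fth1 of natural killer-like and of cDC2-like cells also rose in B2m-null and fell in control tumours, and that of CD4 T-like cells fell in both. In cDC2-like cells the difference was 0.88 ± 0.334 for Fth1 (adjusted p = 0.178, edgeR's quasi-likelihood test). For Ftl1 it was 1.10 ± 0.403 there (adjusted p = 0.158, same test). Whether the difference is particular to monocyte-like cells was not tested.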

How the results depend on the processing

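With anti-CD40 in B2m-null tumours, Slc40a1 fell in macrophage-like cells and Fth1 and Lcn2 rose in monocyte-like cells. These 3 changes passed in every alternative that gave a result for them, and fewer gave one for Lcn2 than for Fth1. Control tumours with anti-CD40 came from 1 pool, so lanes as the unit give that group 1 independent unit. With lanes as the unit, the iron genes that passed in macrophage-like cells were 0 for anti-CD40 in control tumours, 2 in B2m-null tumours and 0 for genotype under isotype, and in monocyte-like cells 2 for anti-CD40 in B2m-null tumours and 0 for genotype under anti-CD40. Genes of all kinds that passed in macrophage-like cells were then 697, 2021, 269 and 21 for anti-CD40 in control and B2m-null tumours and genotype under isotype and anti-CD40, against 2584, 3825, 938 and 1415. After thinning to 2000 UMIs they were 1550, 2025, 610 and 627, with 2 iron genes in monocyte-like cells for anti-CD40 in B2m-null tumours and 1 for genotype under anti-CD40. Thinning leaves fewer counts per cell. With no filter on low counts the iron genes that passed were 2 for anti-CD40 in control tumours in macrophage-like cells, and in monocyte-like cells 2 for anti-CD40 in control tumours, 2 for genotype under isotype and 4 for genotype under anti-CD40. Stricter cell filters (500 genes, 5% mitochondrial) gave 0 iron genes for anti-CD40 in control tumours and 552 genes of all kinds for genotype under isotype. The difference of the anti-CD40 effects gave 1 iron gene with no filter, with DESeq2, after thinning, at resolution 2 and with the unnamed myeloid clusters pooled in, an alternative chosen after seeing the data. Genotype under anti-CD40 gave 1 with monocyte-like and macrophage-like cells pooled and 1 with the unnamed clusters added, and 735 genes of all kinds at resolution 2. Calls in dendritic classes were 13 with no filter, 3 with DESeq2, 2 with lanes as the unit and 2 after thinning, and calls in macrophage-like clusters were 55 with no filter. For these calls the share of all genes under the same setting is not given. The same holds for the counts with no filter and those in monocyte-like cells, so none is read as an excess. The share of B2m-null isotype cells with a Slc40a1 UMI was 21.76% unthinned. Steap4 for anti-CD40 in control tumours turned from 2.40 to -0.195 at resolution 2. The cause of these shifts was not tested.

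Leaving out each lane gave 2267 to 3816 genes for anti-CD40 in B2m-null tumours, 1328 to 2929 in control tumours, 624 to 1787 for genotype under anti-CD40 and 23 to 1188 for genotype under isotype, the lowest without the first control isotype pool. The iron genes in macrophage-like cells were 1 to 6, 1 to 2, 0 to 1 and 0 to 3 in that order and 0 to 1 for the difference, and in monocyte-like cells 1 to 4, 0 to 1, 0 to 3 and 0 to 2. Calls were 0 to 2 in dendritic classes and 16 to 28 in macrophage-like clusters. A replicate block on lane numbers gave 2 iron genes for genotype under isotype in monocyte-like cells, Slc11a1 (-0.53, adjusted p = 0.0308) and Ftl1 (-0.47, adjusted p = 0.0329), against 0, and Hmox1 for anti-CD40 in B2m-null macrophage-like cells (-0.70, adjusted p = 0.0481, edgeR). Deviations of same-numbered lanes correlated over 10125 genes at 0.00782 for control and B2m-null isotype, 0.0752 for control isotype and B2m-null anti-CD40, and 0.22 for the B2m-null isotype and anti-CD40 lanes behind the Hmox1 call. The labels name no shared animal, day or batch, and lanes were not treated as paired. In monocyte-like cells, the share of calls that rose went from 62.9% to 52.2% for anti-CD40 in control tumours and from 61.8% to 72% for the difference of effects with no filter.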

Other observations

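Non-classical monocyte-like cells, the patrolling monocytes marked by Ace and Treml4, were not among the classes chosen for testing, and no test was made. In control tumours with anti-CD40 the 2 mice held 252 and 425 CPM of Slc40a1, from 136 UMIs in 195 cells. The single B2m-null mouse with anti-CD40 and at least 20 such cells held 383 CPM, from 30 UMIs in 31 cells. Under isotype, the 2 control mice with enough cells held 0 and 22.9 CPM, from 1 UMI, and the single B2m-null mouse held 0. These values rest on few mice and cells and are given without a comparison.

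A pair of myeloid clusters stayed without a name. Cluster 11, led by Thbs1 and Arg1, held 33086 ± 6292 CPM of Fth1 and 3139 ± 1510 CPM of Hmox1 in 10 isotype mice. Its Slc40a1 means were 15.6 CPM in control isotype, 3.04 CPM in control anti-CD40, and in B2m-null tumours 37.9 CPM under isotype and 1.84 CPM with anti-CD40. Cluster 12, led by Ly6i and Nos2, made up 13.4% ± 10.6 of the cells of the 4 B2m-null mice with anti-CD40 and 0.290% to 2.05% as group means elsewhere. Slc40a1 had a mean of at most 2.96 CPM there in every group, and Fth1 had a mean of 31372 CPM in B2m-null anti-CD40.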
